A study of Mus musculus with 18 samples.

Results

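Oxidative phosphorylation genes were taken from the deposited expression table by name: genes of the Nduf, Sdh, Uqcr, Cox and Atp5 families, genes encoded in mitochondrial DNA, *Cycs* and *Cyc1*. The names matched 96 of the 12012 genes in the table. Of these, 36 encode subunits of complex I, 4 of complex II, 9 of complex III, 11 of complex IV and 14 of complex V, which makes 74 nuclear subunit genes. A further 11 are assembly factors and related genes that carry a subunit-like name, 1 is *Cycs*, and 10 are encoded in mitochondrial DNA (7 mRNAs, 2 rRNAs and 1 tRNA). The same name pattern matches 109 protein-coding genes in the GENCODE M21 annotation, of which 93 were in the table by gene identifier. *Atp5mpl*, counted in the 93, carries another name in the table and is not among the 96. *Atp5sl* is among the 96 but not among the 109. The other 16, among them *mt-Co2*, *mt-Co3*, *mt-Atp6*, *mt-Atp8*, *mt-Nd3*, *mt-Nd4l*, *Atp5g2*, *Cox4i2* and *Cox7a1*, are not analysed here.

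The libraries came from primary hippocampal neuron cultures of E18.5 mouse embryos, plated on a coating of chondroitin sulphate proteoglycans (CSPGs), sulphated sugar-bearing proteins of the brain's extracellular matrix. The WT group (WT CSPG, n = 4, A to D; the labels name a further library, E, that is not analysed here) had intact *Fibcd1*, and the KO group (KO CSPG, n = 4, A to D) was homozygous for the tm1Lex allele of *Fibcd1*, which encodes a receptor for such sugars. Mice were on a C57BL/6J background, both groups grew on the coating, and RNA was taken at day in vitro 3 by the paper's text or day 2 by its appendix. Each library is a separate preparation of cells, and uncoated cultures of either genotype are not analysed here. The deletion is present in every cell of the KO embryos, and bulk cultures hold more than 1 cell type, so a lower level of a transcript and fewer cells that make it cannot be told apart.

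Oxidative phosphorylation is the process by which mitochondria make most of a neuron's ATP. Complexes I and II pass electrons from NADH and succinate to ubiquinone, complex III passes them to cytochrome c, and complex IV passes them to oxygen. Complexes I, III and IV pump protons across the inner membrane while doing so, and complex V, the ATP synthase, makes ATP as the protons flow back. The catalytic centres of complexes III and IV and the membrane arm of complex I are partly encoded in mitochondrial DNA, whereas complex II and cytochrome c are encoded in the nucleus alone.

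Values are normalized counts: each library's reads per gene after division by the size factor of that library. Reads over the genes of the table ranged from 10099564 to 11174615 in WT CSPG and from 10541445 to 11647202 in KO CSPG. *Fibcd1* (chr2:31813290-31846005, mm10) had 54.3, 70.4, 60.1 and 182 normalized counts in WT CSPG A to D and 0.970, 0.932, 7.16 and 4.74 in KO CSPG A to D (log2 fold change −4.48 ± 0.58 (SE), limma with Benjamini-Hochberg adjusted p = 0.00599). Neuron markers summed to 85784 to 91068 in WT CSPG and 85261 to 87915 in KO CSPG, and oligodendrocyte lineage markers to 1151 to 1512 and 1769 to 1966. Of the 11 neuron markers, *Neurod6* was called lower (log2 fold change −0.19, adjusted p = 0.0118). Of the 9 oligodendrocyte lineage markers, *Olig1* (0.59, adjusted p = 2.3e-07) and *Olig2* (0.79, adjusted p = 1.2e-06) were called higher; the part of this in the members' values was not tested. The sum of 4 Y-linked genes was 1557 to 1935 in WT CSPG and 878 to 1092 in KO CSPG. The study states that mice were matched for age and sex among littermates, and the labels do not give the sex of the embryos behind each library. Of 12 choroid plexus markers, 5 were in the table, 0 were called, and they summed to 250.2 to 4295 in WT CSPG and 321 to 655 in KO CSPG. Astrocyte (10 of 10), microglia (6 of 10), endothelial (1 of 7), fibroblast and mural (8 of 10) and proliferation markers (10 of 10 in the table) had 0 called. WT CSPG D stood apart with 3529 normalized counts of *Ttr*, a choroid plexus transcript, against 5.11 to 953 in the other 7 libraries.

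Levels of the members were compared per 1000 bases of gene length, since longer transcripts collect more reads. The median nuclear subunit gene had 474 normalized counts per 1000 bases in WT CSPG, against 95.5 over all genes of the table. The median was 395 in complex I, 700 in complex II, 683 in complex III, 830 in complex IV and 489 in complex V, and it was 120 among the assembly factors. The 7 mitochondrial mRNAs had a median of 17396, with *mt-Cytb* highest at 32859. Among nuclear members the highest was *Atp5b*, which encodes the catalytic beta subunit of the ATP synthase, at 2931, and the lowest were *Atp5l* (6.83), *Atp5g1* (16.1), *Ndufab1* (16.9) and *Cycs* (18.5). The gene lengths behind these low values were 6443, 4912, 6883 and 3404 bases, against a median of 1551 for the nuclear subunit genes.

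**Figure D1:**
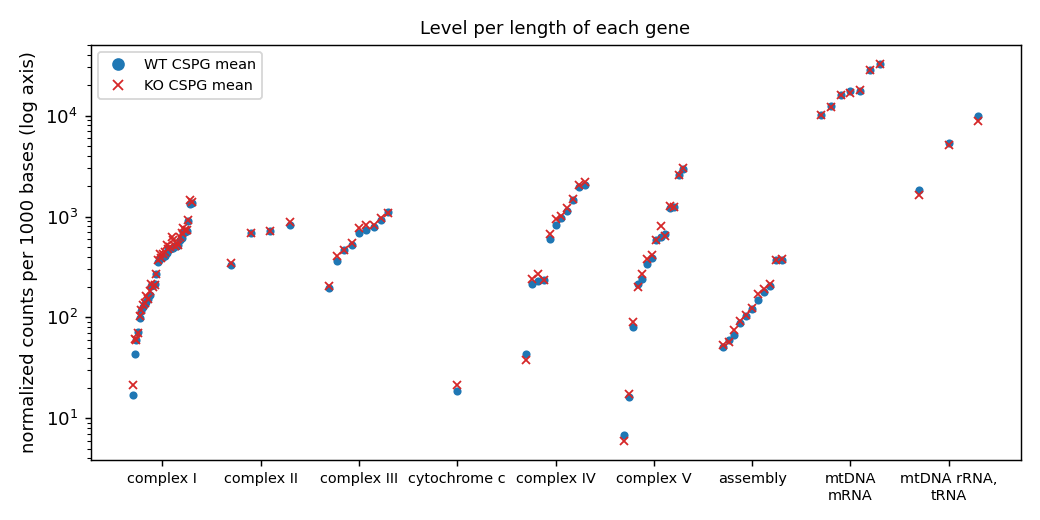
Mean normalized counts per 1000 bases of gene length (log axis) of each of the 96 genes, in order of level within each complex or class, for WT CSPG (circles) and KO CSPG (crosses). The mitochondrial mRNAs lie above the nuclear subunit genes, which range from 6.83 to 2931 in WT CSPG, and circles and crosses nearly coincide on this scale.

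Some members share stretches of sequence with other annotated genes, which can be copies elsewhere in the genome or genes that overlap the member. These kinds were not told apart. In GENCODE M21 transcripts, 35.9% of the 50-base windows of *Ndufaf2*, the lowest share of the 96, occur in no other gene. The share is 58.4% for *Atp5o*, 68.4% for *Ndufb6*, 71.5% for *Ndufa13*, 73.9% for *Cycs*, 74.5% for *Uqcrb*, 77.9% for *Cox7c*, 78.3% for *Ndufs5* and 80.1% for *Atp5h*. The median over the members was 98.9%, and 74 of the 96 had at least 90%. Among mitochondrial mRNAs in the table, *mt-Nd4* (37.8%) and *mt-Co1* (48.9%) had the lowest shares. Of the mitochondrial mRNAs not analysed here, *mt-Co2*, *mt-Co3*, *mt-Atp6*, *mt-Nd4l* and *mt-Nd3* had shares of 0 to 2.01%, and *mt-Atp8* was the exception at 100%. How reads that fit several genes were counted is not given in the sources used here, so the levels of these genes are uncertain.

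Set against WT CSPG, the KO CSPG libraries ask how cells grown on CSPGs differ in their transcripts when *Fibcd1* is lost. Of the 96 members, 5 passed an adjusted p of 0.05: *Ndufa1*, *Ndufb3* and *Ndufs6* of complex I and *Uqcrh* of complex III were higher in KO CSPG, and the mitochondrial large rRNA, *mt-Rnr2*, was lower. Over all genes tested, 2.88% passed (1.09% higher and 1.79% lower). The differences were small, at most 1.28-fold among these 5. The log2 fold change was positive for 75 of the 96 members, against 50.1% of all genes, with a median of 0.05 over the members and 0.000156 over all genes. At an unadjusted p under 0.05, 27 members were higher and 1 was lower, where 7.51% and 8.67% of all genes were. In 10 members every KO CSPG library exceeded every WT CSPG library, against 4.05% of all genes, and 0 members had the reverse order, against 5.17%. Over all genes, 9.22% did not overlap in either direction.

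The count of members called depended on single libraries. Without WT CSPG D, 9 members were called, each of them higher in KO CSPG (*Ndufa1*, *Ndufb3*, *Ndufs5*, *Ndufs6*, *Cox5a*, *Cox5b*, *Cox8a*, *Atp5e* and *Atp5k*), while calls over all genes rose to 576 (4.80%). It was 1 without WT CSPG A, 2 without WT CSPG B, 2 without KO CSPG A and 3 without KO CSPG D. Without KO CSPG B it was 5, of which only *Ndufa1* and *Uqcrh* were also called with all libraries, beside *Cox5b*, *Cox7b* and *Atp5j*. Without WT CSPG C or KO CSPG C limma called 0 members, with 26 and 17 members at an unadjusted p under 0.05. In these other 7 fits, 186 to 276 genes of the table were called (1.55 to 2.30%).

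**Figure D2:**
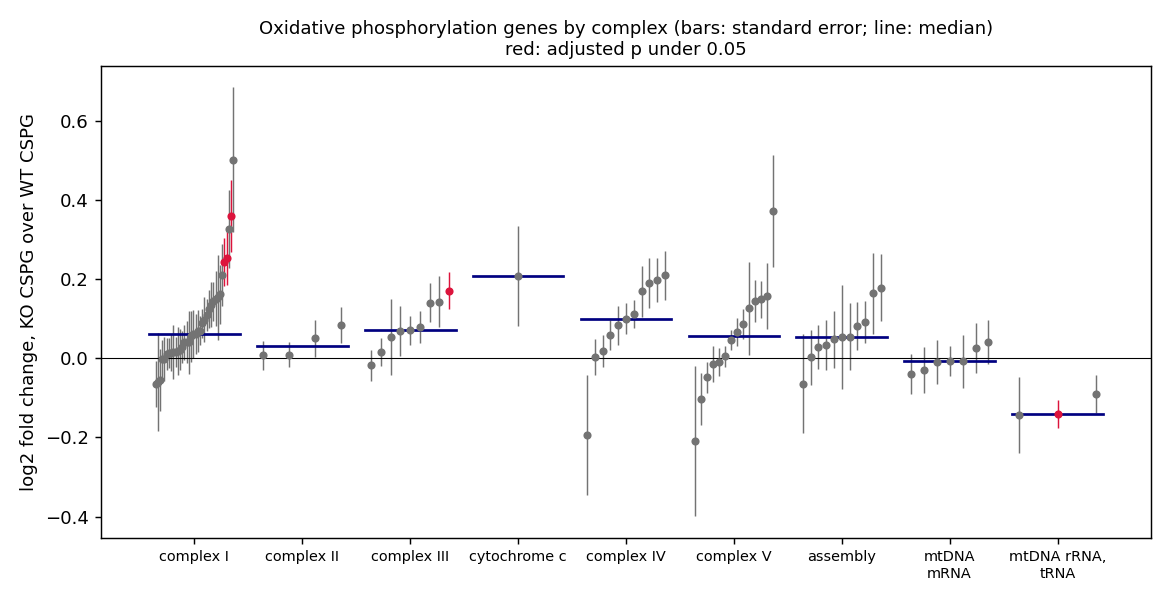
Difference between KO CSPG and WT CSPG (log2 fold change) for each of the 96 genes with its standard error (bars), ordered within each complex or class, with the class median as a line and genes at an adjusted p under 0.05 in red. The nuclear points lie between −0.21 and 0.50 with medians above 0, whereas the mitochondrial mRNAs lie between −0.04 and 0.04 and the rRNAs and tRNA lie below 0.

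Complex I oxidises NADH and is the largest of the chain. Of its 36 nuclear genes in the table, 31 had a positive log2 fold change, with a median of 0.06, and 3 accessory subunit genes rose. *Ndufs6* (chr13:73319874-73328542, mm10), an accessory subunit that binds zinc, had 326, 299, 315 and 299.6 normalized counts in WT CSPG A to D and 366, 363, 393 and 347 in KO CSPG A to D. Every KO CSPG library was above every WT CSPG library. The log2 fold change was 0.24 ± 0.061 (SE, n = 4 and 4, limma adjusted p = 0.0282), or 1.18-fold. Of its 50-base windows 92.3% were unique, the rest being shared with *Ndufs6b*.

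*Ndufa1* (chrX:37187588-37191163), a small accessory subunit of the membrane arm, had 185, 175, 212 and 243 normalized counts in WT CSPG A to D and 288, 241, 265 and 246 in KO CSPG A to D. WT CSPG D, at 243, was just above the lowest KO CSPG library, and the other WT CSPG libraries were below all KO CSPG libraries. The log2 fold change was 0.36 ± 0.090 (adjusted p = 0.0302). *Ndufa1* lies on the X chromosome, and *Xist*, the RNA of the inactive X chromosome, was also higher in KO CSPG (mean 4596 against 7339 normalized counts, adjusted p = 0.0367), so its part in the *Ndufa1* difference was not tested. The other X-linked members were *Ndufb11* (log2 fold change 0.02, adjusted p = 0.922) and *Cox7b* of complex IV (0.17, adjusted p = 0.193).

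*Ndufb3* (chr1:58586384-58595964), another accessory subunit of the membrane arm, had 316, 374, 299.7 and 341 normalized counts in WT CSPG A to D and 367, 386, 398 and 433 in KO CSPG A to D. Only WT CSPG B, at 374, lay within the KO CSPG range. The log2 fold change was 0.25 ± 0.069 (adjusted p = 0.0445).

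The 7 core subunits, which carry the cofactors and the quinone site, had log2 fold changes from −0.07 to 0.10 and a median of 0.04, against 0.06 for the 29 accessory subunits. *Ndufv1*, which binds NADH, had means of 1274 ± 46.5 and 1289 ± 27.5 (SD, n = 4 each), and *Ndufs1* had 1222 ± 55.4 and 1230.4 ± 31.3. Both differences were within the spread of the libraries.

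Some accessory genes had larger fold changes that did not pass. *Ndufs5*, at a low level, had 29.3, 32.5, 34.9 and 54.0 normalized counts in WT CSPG A to D and 55.3, 42, 52.1 and 61.6 in KO CSPG A to D. Its log2 fold change of 0.50 (95% interval 0.12 to 0.88, adjusted p = 0.148) was the highest of the 96 members. *Ndufab1*, the mitochondrial acyl carrier protein, had 123, 103, 129 and 111 against 143, 141, 140.1 and 161, with no overlap between the groups (0.33, adjusted p = 0.0711). *Ndufb8* and *Ndufa9* also had no overlap, at 0.14 (adjusted p = 0.118) and 0.11 (adjusted p = 0.141).

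Complex II is succinate dehydrogenase, which also serves the tricarboxylic acid cycle. Its 4 genes did not pass the test, with 0 of 4 at an unadjusted p under 0.05. *Sdha*, the flavoprotein that oxidises succinate, had 2627, 2794, 2783 and 2846 normalized counts in WT CSPG A to D and 2726, 2821, 2796 and 2771 in KO CSPG A to D. *Sdhb*, the iron-sulphur subunit, had means of 1540.2 ± 51.0 and 1548 ± 41.3. The membrane anchors *Sdhc* and *Sdhd* had log2 fold changes of 0.05 and 0.08. The 95% intervals of all 4 lay within 0.25 on either side of 0 on the log2 scale.

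Complex III hands electrons from ubiquinol to cytochrome c. *Uqcrh* (chr4:116066965-116075071), its acidic hinge protein, had 851, 853, 853 and 823 normalized counts in WT CSPG A to D and 1004, 897, 1014 and 897 in KO CSPG A to D. The WT CSPG libraries A to C were nearly equal, and every KO CSPG library was higher. The log2 fold change was 0.17 ± 0.046 (adjusted p = 0.0410). Of its windows 97.0% were unique, the rest being shared with the pseudogene *Uqcrh-ps1*.

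The catalytic subunits of complex III had smaller values. *Cyc1*, cytochrome c1, had means of 1309 ± 28.0 and 1293 ± 65.3 (log2 fold change −0.02), and *Uqcrfs1*, the Rieske iron-sulphur protein, had 1245 ± 56.5 and 1315 ± 50.8 (0.08, adjusted p = 0.351). *Uqcrc1*, a scaffold subunit, had 1912 ± 77.1 and 1932 ± 45.3. *Uqcrq* and *Uqcr10*, small subunits, had 0.14 each (adjusted p = 0.129 and 0.274). *Cycs*, the electron carrier between complexes III and IV, had 64.8, 60.6, 64.0 and 62.2 normalized counts in WT CSPG A to D and 71.8, 80.2, 77.7 and 62.6 in KO CSPG A to D (0.21, adjusted p = 0.45), with KO CSPG D inside the WT CSPG range.

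The 250 bases upstream of the RefSeq start were searched on both strands for letters bound by regulators of these genes, in the 70 of 86 nuclear members that matched the RefSeq promoter table (GRCm38.p6). The NRF1 motif with 1 open base (GCGCA, any base, then GCGC) occurred in 18.0% of the 61 nuclear subunit genes with a promoter and in 8.75% of 9241 genes of the table. CCGGAAG, read by ETS factors such as GABPA, occurred in 18.0% and 14.3%, AAGATGGC of YY1 in 0% and 2.11%, and GGGCGG of SP1 in 32.8% and 61.9%. These matches are descriptions of letters, not of binding. The bases upstream of the 4 nuclear genes that rose are shown because their promoters are the places where such letters would lie, with matches in capitals.
Ndufa1: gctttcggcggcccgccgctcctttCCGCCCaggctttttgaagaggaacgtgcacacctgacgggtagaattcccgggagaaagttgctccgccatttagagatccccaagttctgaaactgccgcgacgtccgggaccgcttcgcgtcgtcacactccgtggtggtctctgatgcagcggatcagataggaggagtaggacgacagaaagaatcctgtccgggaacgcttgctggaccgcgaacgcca
Ndufb3: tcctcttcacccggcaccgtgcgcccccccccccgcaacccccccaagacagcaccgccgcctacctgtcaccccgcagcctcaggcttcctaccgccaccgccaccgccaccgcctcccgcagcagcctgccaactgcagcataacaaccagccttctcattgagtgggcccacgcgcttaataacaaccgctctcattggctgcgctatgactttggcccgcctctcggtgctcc
Ndufs6: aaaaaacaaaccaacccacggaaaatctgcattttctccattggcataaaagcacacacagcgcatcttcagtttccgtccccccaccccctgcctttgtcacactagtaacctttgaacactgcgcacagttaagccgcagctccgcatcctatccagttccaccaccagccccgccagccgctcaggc
Ndufs6 (NRF1 letters): cgactgctgtGCGCCTGCGCcggcac
Uqcrh: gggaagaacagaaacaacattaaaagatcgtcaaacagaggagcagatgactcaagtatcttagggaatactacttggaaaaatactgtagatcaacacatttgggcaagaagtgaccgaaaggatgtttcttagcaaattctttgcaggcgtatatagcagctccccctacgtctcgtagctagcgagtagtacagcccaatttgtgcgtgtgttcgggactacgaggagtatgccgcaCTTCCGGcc
The windows of *Ndufa1* (chrX:37191239-37191488, minus strand), *Ndufb3* (chr1:58586147-58586383, plus strand), *Ndufs6* (chr13:73328543-73328732, minus strand) and *Uqcrh* (chr4:116075072-116075320, minus strand) are from GRCm38.p6 and stop before the 5′ end of the gene in the deposited table. *Uqcrh* holds the ETS letters on the reverse strand, *Ndufa1* holds the SP1 letters on the reverse strand, and *Ndufb3* holds none of the 4. *Ndufs6* holds the open NRF1 form on the reverse strand, so the capitals show its reverse complement. With its flanks the form lies at chr13:73328483-73328508, inside the gene as the table gives it. The 4 genes that rose thus had no motif in common among the 4 searched.

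Complex IV, cytochrome c oxidase, reduces oxygen to water. Limma called 0 of its 11 nuclear genes, while 6 had an unadjusted p under 0.05, all higher, and 10 of 11 were positive with a median of 0.10. *Cox5a* had 425, 429.9, 434 and 492 normalized counts in WT CSPG A to D and 519.7, 497, 525 and 497 in KO CSPG A to D (0.20 ± 0.056, adjusted p = 0.0538). *Cox5b*, which binds zinc, had 325, 374, 367 and 369 against 427, 384, 432 and 414 (0.21 ± 0.061, adjusted p = 0.0646). *Ndufa4*, named after complex I but placed in complex IV, had 1567, 1565, 1579 and 1557 against 1780.3, 1651, 1732 and 1614 (0.11 ± 0.036, adjusted p = 0.102). In these 3 genes the groups did not overlap, and all missed the threshold.

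Among the isoforms of complex IV, the table held the forms used outside muscle. *Cox4i1*, a regulatory subunit, had means of 3032 ± 97.8 and 3161 ± 199 (0.06, adjusted p = 0.491). *Cox6a1* had 1027 ± 27.0 and 1039.7 ± 35.1, and *Cox7a2* had 909.7 ± 48.3 and 964 ± 60.7. *Cox8a*, a small subunit, had 0.19 (adjusted p = 0.107) and *Cox6b1* had 0.10 (adjusted p = 0.181). *Cox7c* was the only one of the 11 with a negative value, at 46.0, 45.5, 54.3 and 51.0 against 46.5, 39.2, 47.0 and 38.9 (−0.19, 95% interval −0.51 to 0.12), at a low level and with overlapping groups.

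Complex V makes ATP with a rotating F1 head on a membrane-bound Fo part. Limma called 0 of its 14 genes, 4 had an unadjusted p under 0.05, all higher, and 9 of 14 were positive. *Atp5b*, the catalytic beta subunit, had 12379, 12375, 12591 and 12325 normalized counts in WT CSPG A to D and 12671, 12704, 13341 and 12567 in KO CSPG A to D (0.05, 95% interval −0.01 to 0.10, adjusted p = 0.383). KO CSPG D was the only KO CSPG library within the WT CSPG range. *Atp5a1*, the alpha subunit, had 8096 ± 33.9 and 8129 ± 256, and its 95% interval was −0.05 to 0.06. *Atp5c1* and *Atp5d* of the F1 stalk had −0.01 and −0.05, and *Atp5e*, also a core subunit gene, had 0.14 (adjusted p = 0.157).

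The peripheral stalk and Fo genes were more spread. *Atp5j*, coupling factor 6 of the stalk, had 736, 761, 730.3 and 777 against 892, 773, 837 and 830.5 (0.15, adjusted p = 0.0880). *Atp5k*, subunit e, had 349, 363, 337 and 509 in WT CSPG A to D and 571, 448, 501 and 474 in KO CSPG A to D. WT CSPG D lay among the KO CSPG libraries, and its log2 fold change of 0.37 had an interval of 0.04 to 0.70 (adjusted p = 0.25). *Atp5l*, subunit g, had 48.1, 40.1, 34.9 and 53.0 against 33.0, 42.9, 27.6 and 50.2 (−0.21, adjusted p = 0.650), the lowest value of the 96. The c-ring genes *Atp5g1* and *Atp5g3*, which encode the same mature protein, had means of 79.2 ± 8.05 and 86.2 ± 4.51, and 2647 ± 113 and 2772 ± 107.

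**Figure D3:**
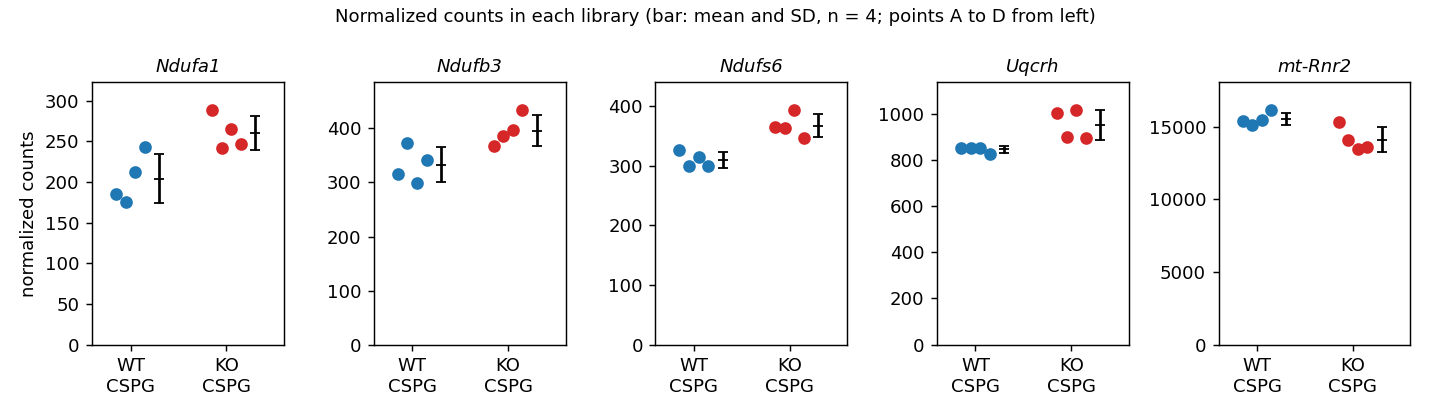
Normalized counts of the 5 genes with an adjusted p under 0.05 in each WT CSPG and KO CSPG library (points, A to D from left), with the mean and SD of 4 libraries (bars) and axes from 0. *Ndufs6* and *Uqcrh* had no overlap between the groups, whereas the groups overlapped in *Ndufa1*, *Ndufb3* and *mt-Rnr2*.

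The 11 assembly factors and related genes had 0 called, 1 at an unadjusted p under 0.05, and 10 positive with a median of 0.05. *Ndufaf1*, needed to build the membrane arm of complex I, had 242, 243, 223 and 195 normalized counts in WT CSPG A to D and 251, 228, 294 and 248 in KO CSPG A to D (0.18, adjusted p = 0.295). *Cox7a2l*, which joins complexes III and IV in supercomplexes, had means of 427 ± 26.5 and 437 ± 32.9. *Ndufaf7* and *Atp5s* had groups that did not overlap, at 0.09 and 0.16, with adjusted p of 0.406 and 0.463.

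The mitochondrial mRNAs had differences near 0. Of the 7, 0 passed an adjusted p of 0.05, 0 had an unadjusted p under 0.05, and 2 had a positive log2 fold change, with a median of −0.01. *mt-Co1*, the catalytic subunit of complex IV, had 27484, 25508, 25284 and 29915 normalized counts in WT CSPG A to D and 28199, 27335, 28879 and 26744 in KO CSPG A to D (0.04, adjusted p = 0.793). *mt-Cytb*, cytochrome b of complex III, had 37575, 35622, 35598 and 41568 against 38319, 36316, 38935 and 35555 (−0.01, adjusted p = 0.955). *mt-Nd1* of complex I had 26935, 25749, 26357 and 29528 against 27871, 25867, 27344 and 26767 (−0.01, adjusted p = 0.947). For these 3 genes the KO CSPG libraries lay inside the WT CSPG range, with the exception of *mt-Cytb* in KO CSPG D, just below it.

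WT CSPG D had the highest value of the 8 libraries for 7 of 7 mitochondrial mRNAs, and it is the library with the highest *Ttr* and *Fibcd1*. Without it the median log2 fold change of the 7 was 0.04 and 7 of 7 were positive, so their direction rests on this library. The part of choroid plexus cells in these values was not tested. The 95% intervals of all 7 lay within 0.25 on either side of 0. *mt-Nd6* lies on the opposite strand to the other 6, and its reads cannot be told from those of the other strand since the kit is not stated to keep it.

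The mitochondrial rRNAs and the tRNA had lower values in KO CSPG. *mt-Rnr2* (chrM:1094-2675), the 16S rRNA, had 15399.7, 15128, 15478 and 16127 normalized counts in WT CSPG A to D and 15335, 14067, 13446 and 13589.8 in KO CSPG A to D. KO CSPG A lay within the WT CSPG range and the other KO CSPG libraries were below it. The log2 fold change was −0.14 ± 0.035 (adjusted p = 0.0393). *mt-Rnr1*, the 12S rRNA, had 5236, 4928, 5155 and 5316 against 5403, 4749.8, 4455 and 4821 (−0.09, adjusted p = 0.397), and *mt-Tc*, a tRNA, had means of 119.8 ± 5.82 and 108 ± 5.01 (−0.14, adjusted p = 0.508). The libraries were enriched for poly-A, so these values count only what passed that step. The rRNAs took 11.1 to 12.4% of the reads on mitochondrial genes in WT CSPG and 10.1 to 11.5% in KO CSPG. Mitochondrial genes took 1.53 to 1.77% and 1.55 to 1.67% of the reads of the table, and the nuclear members 0.752 ± 0.0101% and 0.787 ± 0.0262% (SD, n = 4 each).

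Across libraries the nuclear subunit genes did not separate the genotypes. The median deviation of the 74 genes from their own means, on the log2 scale, was −0.06, −0.05, −0.03 and 0.003 in WT CSPG A to D and 0.06, −0.01, 0.09 and −0.000172 in KO CSPG A to D. KO CSPG B and D lay below WT CSPG D, and KO CSPG A and C were highest. KO CSPG C held the highest value of 31 of the 74 genes and KO CSPG A of 17, while WT CSPG A held the lowest of 24 and WT CSPG B of 17. Genes of up to 1000 bases that are not members had −0.04, −0.04, −0.01 and 0.0000474 in WT CSPG A to D and 0.05, −0.03, 0.09 and 0.01 in KO CSPG A to D, with KO CSPG A and C again highest and WT CSPG A and B lowest.

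**Figure D4:**
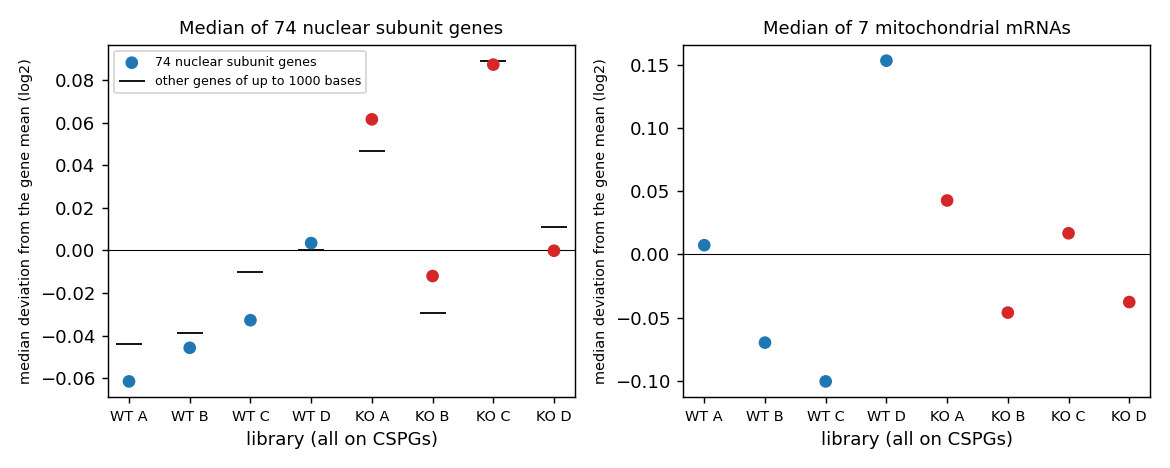
Median deviation from the gene mean (log2) in each library, for the 74 nuclear subunit genes with dashes for other genes of up to 1000 bases (left) and for the 7 mitochondrial mRNAs (right), WT CSPG in blue and KO CSPG in red. KO CSPG A and C are highest on the left, and WT CSPG D is highest on the right.

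Many subunit genes are short, and short genes of any kind had log2 fold changes slightly above 0. Among genes of up to 1000 bases, the 207 that are not members had a median log2 fold change of 0.05, with 71.0% positive, and the 20 nuclear subunit genes had 0.13, with 20 positive and 3 called. Above 1000 and up to 2000 bases, 25 subunit genes had a median of 0.06 with 15 positive (60%), and 1163 other genes had 0.02 with 59.2% positive. Above 2000 and up to 4000 bases the median was 0.01 for 3680 other genes (54.1% positive) and 0.05 for 19 subunit genes (18 positive). Above 4000 and up to 8000 bases it was −0.01 for 4740 other genes (46.9% positive) and 0.05 for 9 subunit genes (8 positive). With the trend on length taken out, the 74 nuclear subunit genes had a median of 0.05 and 55 positive, against 50.1% of all genes, and 2 of the 96 members were called (*Ndufa1* and *mt-Rnr2*, where 3.28% of all genes were). The part of RNA quality in this trend was not tested.

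**Figure D5:**
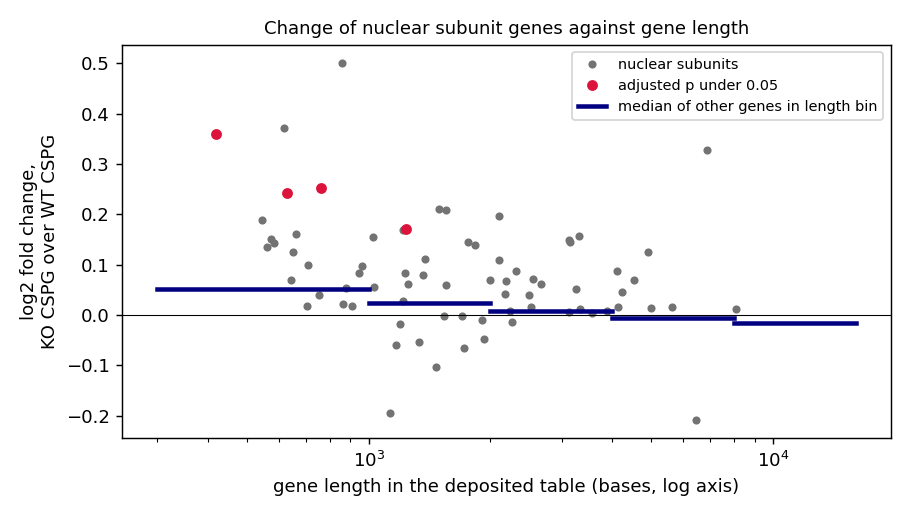
Difference between KO CSPG and WT CSPG (log2 fold change) against gene length (bases, log axis) for the 74 nuclear subunit genes, with genes at an adjusted p under 0.05 in red and the median of all other genes in each length range as a bar. The bars fall from 0.05 in genes of up to 1000 bases to −0.02 in genes over 8000 bases, and 3 of the 4 red points are at under 1000 bases.

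Scaling by the upper quartile moved the median of all genes by 0.01 and changed the split of calls in the table from 131 higher and 215 lower to 182 and 178. Under it 5 members were called, with *Cox5a* in place of *mt-Rnr2* (adjusted p = 0.0708), and 81 of 96 were positive, against 56.0% of all genes. A fit with the level of the Y-linked genes as a covariate called 0 members with limma, with 7 at an unadjusted p under 0.05, and 2 genes of the whole table (0.0167%). Genotype accounted for 91.2% of the variance of that covariate, so embryo sex and genotype cannot be told apart here.

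Other genes of the pathway were seldom called. Of 37 assembly factors with other names, 0 were called, 1 was higher at an unadjusted p under 0.05, and the median was 0.05. *Bcs1l*, which inserts the Rieske protein in complex III, had the smallest p of them (0.19, adjusted p = 0.287). Of 19 regulators of mitochondrial biogenesis and mitochondrial DNA expression, 0 were called, 1 was higher and 1 lower at an unadjusted p under 0.05, and the median was −0.01. *Nrf1*, a transcription factor for respiratory genes, had 398, 382, 387 and 372 normalized counts in WT CSPG A to D and 324, 354, 368 and 343 in KO CSPG A to D, with no overlap (−0.15, adjusted p = 0.191). *Ppargc1a*, *Tfam*, *Gabpa* and *Polrmt* had −0.04, −0.01, −0.01 and −0.02, each with adjusted p of at least 0.808.

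Of the 17 genes of the tricarboxylic acid cycle and pyruvate dehydrogenase, 0 were called by limma, with 2 higher at an unadjusted p under 0.05 and a median of 0.03. *Idh3a* had 0.08 (adjusted p = 0.223) and *Cs*, citrate synthase, 0.06 (adjusted p = 0.340). In glycolysis and its transporters 1 of 21 genes was called, with a median of −0.004. This was *Slc16a7*, a carrier of lactate and pyruvate, at 704, 696, 647 and 722 normalized counts in WT CSPG A to D and 875, 862, 799 and 835 in KO CSPG A to D (0.28 ± 0.046). All its KO CSPG libraries were above the WT CSPG range. Hypoxia targets (9 genes, median 0.004), carriers, import and structure (18 genes, 0.03) and antioxidant and uncoupling genes (10 genes, 0.03) had 0 called, with 1, 1 and 0 at an unadjusted p under 0.05.

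Ribosomal protein genes were counted in the same way. The 75 mitochondrial ribosomal protein genes had 0 called, 5 higher at an unadjusted p under 0.05, 52 positive and a median of 0.04. The 60 cytosolic ribosomal protein genes had 2 called higher, 1 called lower, 42 positive and a median of 0.07, beside 0.07 for the 74 nuclear subunit genes.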

How the data were processed

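Poly-A RNA of the cultures was sequenced by the authors in single-end runs of 50 bases. The aligner and the counting program are not given in the sources used here; the submitters' processing notes name mm10 and DESeq2. The series labels 18 libraries, of which 8 are analysed here. For these the authors deposited a normalized signal, in which each library's reads were scaled by its size factor, over 12012 genes with a mean of at least 40.7; the table's own fold changes and p-values were not used. Dividing a library's values by their common step gave its read total. Starts count from 0 in the table and from 1 here. Every one of the 96 members had at least 10 normalized counts in each library, so a filter at that level removed none. A filter at a mean of at least 100, used as an alternative, left out members such as *Cycs*, *Ndufs5* and *Atp5l*.

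The log2(value + 1) of each gene was modelled in limma 3.58.1 under R 4.3.3 (variance trend, robust), and p-values were adjusted by Benjamini-Hochberg across all 12012 genes. A fold change is on the log2(value + 1) scale, and adjusted p-values are from this fit. The script was tested on simulated data. Transcript windows came from GENCODE M21 and promoters from RefSeq. Lists are described by counts and medians, with no set test. Members and lists were chosen with earlier results of these data known, and genes outside the rule for named genes (*Ndufs5*, *Ndufb8*, *Ndufa9*, *Atp5k* and others of the 96, and *Ppargc1a*, *Tfam*, *Gabpa* and *Polrmt* among the regulators) were named after their values were seen. Named genes were the members called, the smallest p in each complex, catalytic subunits, isoforms, and the highest and lowest levels per complex. Alternatives were pseudocounts of 0.1 and 10, filters (a mean of at least 100, at least 10 in every library), upper-quartile scaling, a length trend, other variance priors, a replicate block, a Y-linked covariate, each library left out, and subsets of members.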

Additional observations from a re-analysis of the deposited data

Results flagged for a closer look

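In 5 groups of 4 libraries, 1 library stood far from the other 3, measured as its gap to the nearest library over the whole range of the group. *Uqcrh* in WT CSPG D had 823 normalized counts, against 851 to 853 in the other WT CSPG libraries. *Cox5a* in WT CSPG D had 492, against 425 to 434, and *Uqcrb* in WT CSPG D had 198, against 162 to 165. *Ndufab1* in KO CSPG D had 161, against 140.1 to 143. *Fibcd1* in WT CSPG D had 182, against 54.3 to 70.4. In all, 82 groups were examined, and chance flags about 1 in 20, or 4.1 of them. WT CSPG D was the library concerned in 4 of the 5.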

How the results depend on the processing

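The number of members called by limma was 5, and it remained 5 with either pseudocount, either filter, upper-quartile scaling and the replicate block (the same 5 genes in the block), 4 with a prior that is not robust, 4 among structural subunits and 4 without the X chromosome. It was 2 with the length trend removed, 0 without a prior trend (24 at an unadjusted p under 0.05) and 0 with the Y-linked covariate (7 at an unadjusted p under 0.05), under which the median log2 fold change of the members was 0.11. Of all genes tested, 2.86 to 3.57% were called with either pseudocount, either filter, upper-quartile scaling, the replicate block or the prior that is not robust. The share was 3.28% with the length trend removed, 0.666% without a prior trend and 0.0167% with the Y-linked covariate. Leaving out 1 library at a time gave counts from 0 to 9 and medians from 0.03 to 0.07; why single libraries move the count was not tested. The replicate block changed no call among the members and moved the calls in the table from 346 to 429. Libraries with the same letter shared only that letter: the correlation of their deviations was -0.07, 0.10, 0.28 and -0.01 for A to D, and 4 of 8 libraries correlated best with their own letter. The planned count models, edgeR and DESeq2, were not run. Each library's values are whole multiples of a single step, so reads could be recovered, but genes with few reads are left out and the values were treated as a signal.

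Over all 96 members, the direction differed from that of the main result in 6 under upper-quartile scaling, 10 with the length trend removed, 27 with the Y-linked covariate and 3 to 12 with 1 library left out, none of them called in either fit. The values that follow cover only the 40 members chosen by the rule for named genes, of which 17 reversed, each with adjusted p of at least 0.547. Upper-quartile scaling gave 0.0041 for *mt-Nd1* and 0.0023 for *mt-Cytb*. Removing the length trend gave -0.0070 for *Sdhb*, -0.033 for *Cox6a1*, -0.0082 for *Ndufc2*, -0.0018 for *Cox7a2l* and -0.00030 for *Atp5a1*. The Y-linked covariate gave -0.066 for *Cox6a1*, -0.0097 for *Cycs*, -0.085 for *Sdhd*, -0.026 for *Uqcrc1*, -0.12 for *Atp5g1*, -0.13 for *Sdha*, 0.076 for *Cox7c*, -0.030 for *Cox7a2l*, -0.059 for *Atp5a1*, -0.14 for *Ndufv1*, 0.16 for *mt-Nd1* and 0.091 for *mt-Cytb*. Leaving out 1 library ranged from -0.020 to 0.032 for *Ndufs1*, -0.0087 to 0.028 for *Sdhb*, -0.023 to 0.13 for *Uqcrb*, -0.015 to 0.023 for *Sdha*, -0.050 to 0.00080 for *Cyc1*, -0.0091 to 0.079 for *Cox7a2l*, -0.0096 to 0.025 for *Atp5a1*, -0.033 to 0.033 for *mt-Nd1* and -0.035 to 0.039 for *mt-Cytb*. The cause of these reversals was not tested. The 5 called members kept their direction throughout; with 1 library left out, *Ndufa1* and *Ndufs6* passed in 3 of 8 fits and *Ndufb3*, *Uqcrh* and *mt-Rnr2* in 2 of 8.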
